A study of Arabidopsis thaliana with 20 samples.

Results

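The comparison set Arabidopsis lines that overexpress a catalytically active human ALKBH5 against lines that overexpress the same protein inactivated by the H204A substitution, over both forms of the protein. Its members were 16 of the 20 libraries of the series, 8 of them immunoprecipitated (IP) and 8 input. The active genotypes were del-cIDR, which lacks the C-terminal intrinsically disordered region, and FL, the full-length protein. Their counterparts were inactive del-cIDR and inactive FL, which carry H204A. All 4 genotypes were in the Col-0 background, and untransformed Col-0, with 2 IP and 2 input libraries, was not part of the contrast. The material was whole seedlings, 10 days old, grown at 21 °C with 16 h of light. Each genotype had 2 libraries of each kind, which gave 4 active against 4 inactive libraries in each table. A feature was taken up as shared only where its change had the same sign in del-cIDR and in FL.

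N6-methyladenosine (m6A) is an internal mark of RNA. In plants it is deposited by a writer complex around MTA, bound by YTH-domain readers of the ECT family, and removed by demethylases of the AlkB family. ALKBH5 is a human member of that family with an iron-dependent active site. RNA that stays bound to chromatin is rich in nascent transcripts and in transcripts of transposons and other non-coding loci, and in mammals m6A on this RNA is known to affect its stability and the chromatin around it.

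Chromatin-associated RNA was sequenced before (input) and after (IP) enrichment with an m6A antibody. The input libraries gave a deposited signal for 30613 genes, transposable elements and other features, and the IP libraries gave a deposited ratio for 2291 m6A peaks. Neither table holds counts, so the depth behind a value is unknown. The labels do not say what separates the 2 libraries of a genotype or whether a genotype is more than 1 transgenic line, so the p-values measure only the spread between these libraries, and an effect of activity and a difference between lines cannot be told apart. The transgene has no row in the tables, so its level could not be checked. No feature is at 0 in any input library, so the labelled tissue could not be checked by absent markers; the summed signal was 23000 to 56500 for leaf mesophyll markers and 417 to 753 for root hair and root uptake markers. Plastid-encoded features took 21.4% to 32.5% of the input signal in the active libraries and 26.5% to 36.8% in the inactive libraries.

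The signal of the input libraries was higher over most of the transcriptome in the active lines. The library medians were 79.2 and 89.5 in del-cIDR and 100.2 and 99.3 in FL, against 70.2 and 70.6 in inactive del-cIDR and 60.8 and 71.7 in inactive FL. All 4 active libraries lay above all 4 inactive libraries, and Col-0, at 54.2 and 51.0, lay below both. The difference of the mean log2 medians was 0.43 (exact permutation test over libraries, two-sided p = 0.0286, the smallest p that 70 assignments allow). It was 0.26 between del-cIDR and inactive del-cIDR and 0.59 between FL and inactive FL. With activity permuted within each form the exact p was 0.0556, again the smallest possible. The summed signal of all features overlapped, at 3.35e+07 to 3.68e+07 in the active libraries and 3.25e+07 to 3.36e+07 in the inactive libraries. The largest feature held 24.6% to 32.9% of a library's sum. The sum of the ERCC controls was nearly equal in all libraries, at 109313 to 110569. The level of a feature therefore depends on how the authors scaled the libraries. Changes below are as scaled by the authors unless they are called centred; centring each library on its median lowers every expression change by the same 0.39 on the log2 scale.

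**Figure D1:**
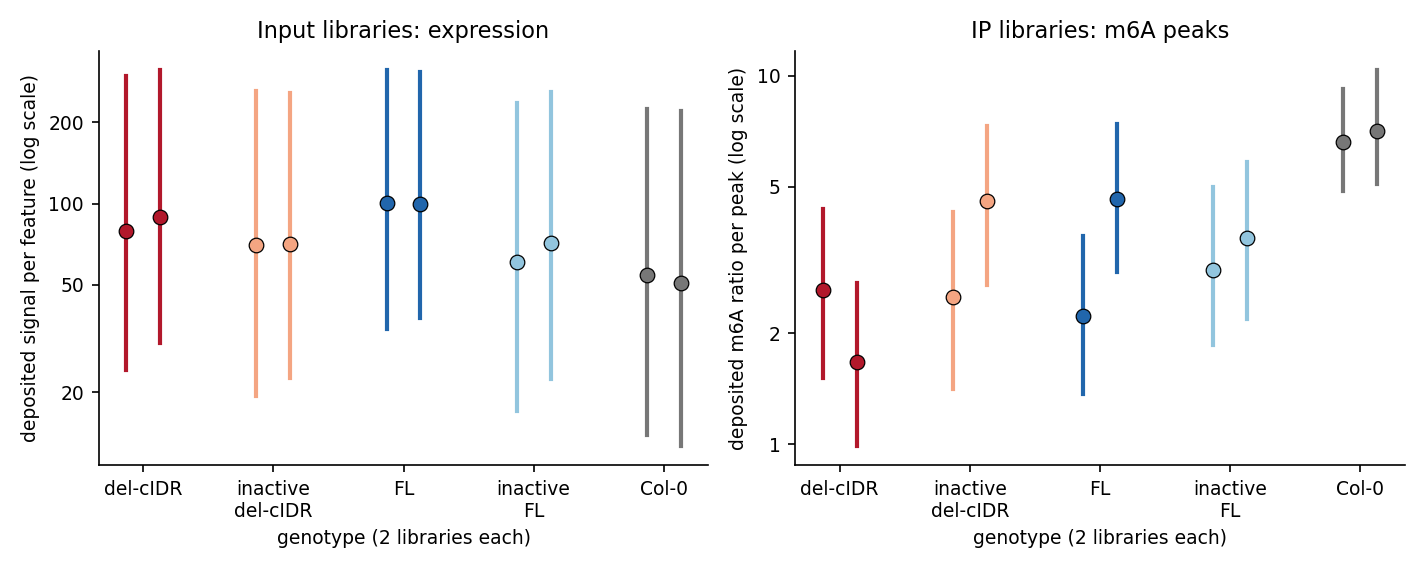
Median (point) and middle 50% (line) of the deposited signal per feature in the input libraries (left) and of the deposited m6A ratio per peak in the IP libraries (right), log axes, 2 libraries for each genotype. The 4 active input libraries have medians of 79.2 to 100.2, above the 60.8 to 71.7 of the inactive ones, while the medians of the active and inactive IP libraries overlap.

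Of the 30613 features, 23654 were higher in both active lines and 401 were lower in both. With the values as scaled by the authors, 18693 features were called higher in the active lines, 61.1% of all features tested, and 189 were called lower, 0.617% (limma, Benjamini-Hochberg adjusted p under 0.05 and the same sign in both forms). The median change was 0.37 on the log2 scale. After each library was centred on its own median, 809 features were called higher, 2.64%, and 3488 lower, 11.4%, so the direction in which most calls fall depends on the scaling. Weakly expressed features had the larger rise. The median change was 0.50 in the lowest of 10 classes of the Col-0 level and 0.27 in the highest. In FL the class medians were 0.72 and 0.20, and in del-cIDR they were 0.27 and 0.33. Centring each library within the 10 classes, an alternative chosen after seeing the data, left 748 features called higher, 2.44%, and 1092 lower, 3.57%. The active and inactive libraries did not overlap in 9320 features that were higher, 30.4%, and 24 that were lower, 0.0784%. Without FL replicate 2, 15489 features were called higher, 50.6%, and 179 lower, 0.585%.

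**Figure D2:**
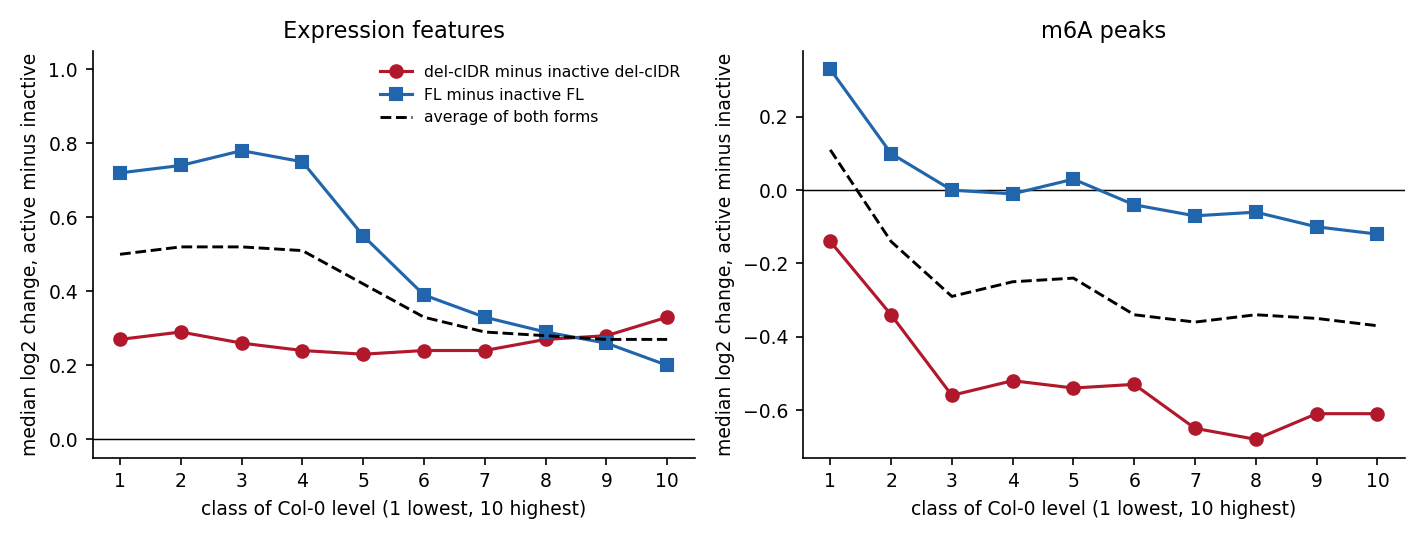
Median log2 change, active minus inactive, of features (left) and m6A peaks (right) in 10 classes of their Col-0 level, for del-cIDR (circles), FL (squares) and the average (dashed). In expression the FL line starts at 0.72 and ends at 0.20 while the del-cIDR line stays between 0.23 and 0.33, and in m6A the del-cIDR line lies below 0 in every class.

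Transposable elements and pseudogenes had a larger median rise than protein-coding genes in FL and in the average, and a smaller one in del-cIDR. Of 4050 transposable elements, 2226 were called higher, with a median change of 0.52 (0.20 in del-cIDR and 0.85 in FL). Of 2783 pseudogenes and transposon genes, 1731 were called higher, with a median of 0.57 (0.18 in del-cIDR and 0.97 in FL). Of 22829 protein-coding genes, 14269 were called higher and 177 lower, with a median of 0.33 (0.29 and 0.35). The shares called higher, 55.0%, 62.2% and 62.5%, were close to the 61.1% of all features. Of the 132 plastid-encoded features, 20 were called higher and 6 lower, with a median of 0.10. Since these classes also differ in level, they were set side by side within the classes of the Col-0 level. In the lowest class the median change was 0.50 for 820 transposable elements and 0.49 for 1548 protein-coding genes. In the fifth class it was 0.56 for 447 transposable elements and 0.37 for 2218 protein-coding genes, with 1.03 and 0.47 in FL but 0.13 and 0.28 in del-cIDR. In the highest class it was 0.23 for 42 transposable elements and 0.28 for 2840 protein-coding genes.

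A small set of genes rose in each active line beyond the general rise. Called in each form's own contrast, and under all 3 scalings (as deposited, median-centred, and centred within level classes), were 26 features higher, 0.0849% of those tested, and 39 lower, 0.127%. The higher set held 22 protein-coding genes, 3 pseudogenes or transposon genes and 1 transposable element. Called in each form were 17.5% of all features higher and 0.144% lower as deposited, 0.17% and 3.2% after median-centring, and 0.252% and 0.565% after centring within level classes. Under both centrings alone, 26 were higher, 0.0849%, and 139 lower, 0.454%. In 24 of the 26 higher features the active and inactive libraries did not overlap, and 30.4% of all features were higher without overlap. The change differed between the forms in 3 of them (interaction contrast, adjusted p under 0.05), against 20.1% of all features. The 26 were selected by a call in each form, which bears on both counts. In 19 of the 26, Col-0 had the lowest mean of the 5 genotypes, against 65.1% of all features. These sets were formed after seeing the values and are described here, not tested.

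Response genes of the cytokinin pathway were among them. ARR7, a type-A response regulator that dampens cytokinin signalling, had a signal of 396 and 492 in del-cIDR and 632 and 623 in FL, against 192 and 202 in inactive del-cIDR and 256 and 251 in inactive FL. Every active library was above every inactive one. The log2 change was 1.21 ± 0.07 (SE; adjusted p = 1.08e-19), or 0.82 relative to the median feature, with 1.14 in del-cIDR and 1.29 in FL. ARR6 had 143 and 175 in del-cIDR and 239 and 217 in FL, against 76.5 and 75.7 in inactive del-cIDR and 79.1 and 128 in inactive FL. Its log2 change was 1.06 ± 0.12 (adjusted p = 1.17e-10, centred 0.67). RR5 rose in both forms but more in FL, with 444 and 491 in del-cIDR and 878 and 852 in FL, against 363 and 374 in inactive del-cIDR and 345 and 416 in inactive FL. The forms differed for RR5 (1.18 in FL and 0.34 in del-cIDR, adjusted p of the difference 6.65e-07). Of the 10 type-A response regulators, a list added after the values were seen, 8 were called higher and 0 lower. As scaled, 61.1% of all features were called higher. The list's median change was 0.60 against 0.37 for all features, and after median-centring 4 were called higher and 2 lower. On that scale 2.64% of all features were called higher and 11.4% lower. AT1G19040, the neighbour of ARR7 in the gene table, had 84.4 and 88.3 in del-cIDR and 147 and 163 in FL, against 36.3 and 39.9 in inactive del-cIDR and 38.3 and 34.8 in inactive FL, a log2 change of 1.47 ± 0.17.

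Among genes of ethylene synthesis, ACS11 and ACS8 rose in both forms. ACS11 encodes an ACC synthase, the enzyme of the committed step to ethylene. It had 278 and 304 in del-cIDR and 198 and 211 in FL, against 132 and 140 in inactive del-cIDR and 87.2 and 90.6 in inactive FL, a log2 change of 1.1 ± 0.10 (adjusted p = 9.3e-13). ACS8 had 201 and 194 in del-cIDR and 155 and 154 in FL, against 82.3 and 75.7 in inactive del-cIDR and 81.7 and 95.6 in inactive FL, a log2 change of 1.00 ± 0.12. Both stayed higher after median-centring, by 0.71 and 0.61. Of 9 ACC synthases, again a list added after the values were seen, 6 were called higher and 0 lower, a share near the 61.1% of all features. After centring 3 were higher and 1 lower, where 2.64% and 11.4% of all features were.

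The higher set also held CBP60G, WRKY48, MYB51, CZF1, NAC062 and TCH3, which were picked from it after their values were seen. CBP60G, which activates salicylic acid synthesis, had 861 and 844 in del-cIDR and 1070 and 1030 in FL, against 508 and 492 in inactive del-cIDR and 474 and 571 in inactive FL (log2 change 0.89 ± 0.06, adjusted p = 9.96e-19). Its close relative SARD1 had 183 and 196 in del-cIDR and 149 and 152 in FL, against 89.4 and 113 in inactive del-cIDR and 76.0 and 78.4 in inactive FL (0.88 ± 0.13). For both genes the libraries of the groups were apart, and the changes after median-centring were 0.49 each. Col-0 lay below the inactive lines as well, at 260 and 230 for CBP60G and 20.5 and 19.6 for SARD1. The transcription factor WRKY48 averaged 707 ± 188 in the active lines and 357 ± 54.7 in the inactive lines (SD, n = 4 each), and MYB51, a regulator of indole glucosinolates, averaged 338 ± 9.49 and 176 ± 46.0. CZF1, a stress-induced zinc finger protein, averaged 7270 ± 673 in the active lines and 4220 ± 139 in the inactive lines, and the membrane-tethered factor NAC062 averaged 3290 ± 482 and 1990 ± 203. TCH3, a calmodulin-like protein induced by touch, had 2600 and 2820 in del-cIDR and 2710 and 2490 in FL, against 1730 and 1830 in inactive del-cIDR and 1360 and 1490 in inactive FL (0.73 ± 0.04, centred 0.34). In all 5 of these regulators the active libraries lay above the inactive ones, and Col-0 was lower than either in WRKY48, MYB51, CZF1 and TCH3.

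Of the 14 rapid stress and touch genes, 13 were called higher and 0 lower, where 61.1% of all features were called higher. Their median change was 0.50 against 0.37 for all features. After median-centring 5 were called higher and 1 lower. The shares of all features on that scale, for this list and those that follow, were 2.64% higher and 11.4% lower. Col-0 had the lowest mean of the 5 genotypes in all 14, against 65.1% of all features. The change differed between the forms in 9, against 20.1% of all features. The summed signal of the 14 genes was 37600 to 46700 in the active libraries and 28900 to 31800 in the inactive libraries. Of 20 salicylic acid and immunity genes, 6 were called higher and 0 lower, below the 61.1% of all features, and after centring 2 higher (CBP60G and SARD1) and 2 lower. The list's median was 0.34, with 0.07 in del-cIDR and 0.63 in FL; the median feature changed by 0.27 and 0.43. Of 16 cold and abscisic acid genes, 6 were called higher and 1 lower, a share of higher calls below the 61.1% of all features, and after centring 2 were higher and 2 lower. The list's median was 0.59 in del-cIDR and 0.04 in FL. CBF1, which switches on cold acclimation genes, rose in both forms, with 831 and 860 in del-cIDR and 639 and 586 in FL, against 416 and 431 in inactive del-cIDR and 416 and 403 in inactive FL (0.78 ± 0.07, adjusted p = 7e-14, centred 0.39). Col-0, at 97 and 134, lay below the inactive lines as well.

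Metabolic genes of the higher set included ICL, the isocitrate lyase of the glyoxylate cycle, with 236 and 236 in del-cIDR and 283 and 278 in FL, against 139 and 122 in inactive del-cIDR and 104 and 111 in inactive FL (1.08 ± 0.10, centred 0.69). DIN2, a glucosidase gene induced in the dark, averaged 263 ± 37.2 in the active lines and 121 ± 23.2 in the inactive lines. TPX2, here the thioredoxin-dependent peroxidase and not the spindle protein of the same name, averaged 94.6 ± 35.0 in the active lines and 34.5 ± 19.3 in the inactive lines. In these metabolic genes the active and inactive libraries did not overlap. Outside the protein-coding genes, the pseudogene AT3G33084 had 99.0 and 121 in del-cIDR and 68.3 and 50.8 in FL, against 33.9 and 39.0 in inactive del-cIDR and 9.05 and 12.2 in inactive FL (1.67 ± 0.18).

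The 12 features of largest rise were taken from 5892 called ones whose libraries did not overlap and whose mean reached the median feature's. They were AT5G24240, AT2G20142, AT1G19040, AT2G11320, AT3G57420, AT4G25580, FHL, ARR7, FKF1, AT3G29000, DREB2C and AT5G22470. AT2G20142 had 211 and 194 in del-cIDR and 301 and 294 in FL, against 57.7 and 75.7 in inactive del-cIDR and 81.8 and 89.6 in inactive FL. Its log2 change was 1.62 ± 0.12 (adjusted p = 5.29e-17, centred 1.23), with 1.52 in del-cIDR and 1.72 in FL. The pseudogene AT2G11320 averaged 141 ± 28.6 in the active lines and 47.1 ± 3.77 in the inactive lines. FHL, a helper of phytochrome A import into the nucleus, averaged 129 ± 46.2 and 49.9 ± 20.8. AT3G29000 averaged 118 ± 28.5 in the active lines and 49.7 ± 8.53 in the inactive lines, and AT5G22470 (PARP3) had 96.2 to 127 in the active libraries and 32.8 to 72.5 in the inactive libraries. None of these 5 had a difference between the forms past the threshold.

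In 5 of the 12 the rise was larger in del-cIDR, and the difference between the forms passed the test. FKF1, a blue-light receptor of the flowering pathway, had 1960 and 1950 in del-cIDR against 389 and 369 in inactive del-cIDR, but 871 and 917 in FL against 823 and 866 in inactive FL. The changes were 2.34 and 0.08 (adjusted p of the difference 1.76e-26). AT3G57420 changed by 2.51 in del-cIDR and 0.29 in FL, AT4G25580 by 2.21 and 0.37, DREB2C by 1.98 and 0.25, and AT5G24240 by 2.94 and 0.99. AT3G57420 stood high in del-cIDR, at 2060 and 2170, against 383 and 350 in inactive del-cIDR and 396 and 434 in Col-0. AT4G25580 had 621 and 627 in del-cIDR, against 126 and 134 in inactive del-cIDR and 577 and 522 in Col-0, so inactive del-cIDR stood low. FKF1 did both, since Col-0 had 683 and 721. In FL alone the changes of FKF1 and DREB2C did not pass (adjusted p = 0.272 and 0.279). FKF1 and DREB2C were called under neither centring, and AT3G57420 and AT4G25580 only after centring within level classes. The clock-controlled GRP7 and the clock gene PCL1 also stood low in inactive del-cIDR, with changes of 1.97 and 1.69 in del-cIDR and 0.06 and 0.28 in FL. Of 26 clock genes 15 were called higher and 0 lower, a share near the 61.1% of all features. After centring 1 was called higher and 6 lower, where 2.64% and 11.4% of all features were. As scaled, the list's median was 0.41 against 0.37 for all features.

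The genes that were lower in both active lines were few, and many of them were photosynthesis genes. The set called in each form under all 3 scalings held 36 protein-coding genes and 3 plastid-encoded features. It included light-harvesting and photosystem genes (LHCA1, LHCA2, LHCB4.2, PSAK, PSAL, PSAO, PSBO2, PSBP-1, PSBQA), genes of carbon fixation (RBCS2B, CA1, PRK) and genes of photorespiration (GLDP1, SHM1, PMDH2). In 37 of the 39 features inactive del-cIDR had the highest mean of the 5 genotypes, against 6.18% of all features. In 24 of the 39 the change differed between the forms, against 20.1% of all features. In 6 the active and inactive libraries did not overlap, and 0.0784% of all features were lower without overlap. The set was selected by a call in each form, which bears on both counts. The fall was thus shared in sign, and in most of these features inactive del-cIDR stood above the other genotypes. Col-0 had the lowest mean of the 5 genotypes in 19 of the 39, against 65.1% of all features. It lay above FL in 20, against 5.47% of all features.

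GLDP1, a subunit of the glycine decarboxylase of photorespiration, had 2160 and 2150 in del-cIDR against 4130 and 4160 in inactive del-cIDR, and 1150 and 1020 in FL against 1380 and 1410 in inactive FL. Col-0, at 1360 and 1350, lay beside inactive FL. The log2 change was -0.65 ± 0.04 (adjusted p = 2.72e-20, centred -1.05), with -0.94 in del-cIDR and -0.37 in FL. RBCS2B, a small subunit of Rubisco, had 1070 and 1080 in del-cIDR against 2500 and 2380 in inactive del-cIDR, and 815 and 770 in FL against 893 and 942 in inactive FL (-0.69 ± 0.04). CA1, a chloroplast carbonic anhydrase, had 4150 and 4260 in del-cIDR against 5840 and 5880 in inactive del-cIDR, and 1800 and 1820 in FL against 2020 and 2300 in inactive FL (-0.37 ± 0.03). PSBO2, of the oxygen-evolving complex, changed by -0.66 in del-cIDR and -0.14 in FL, and SHM1 by -0.68 and -0.15. Within each form every active library of these 5 genes except PSBO2 in FL was below both inactive libraries; PSBO2 had 1980 and 1780 in FL against 1970 and 2180 in inactive FL. RBCS2B and RBCS1B are close copies of each other, as are the LHCB2 genes and MLP328 and its neighbours, and how reads shared by such copies were counted is not given in the sources used here, so their values are uncertain.

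Among 44 nuclear photosynthesis genes, 28 were called lower and 1 higher, where 0.617% and 61.1% of all features were called. Their median change was -0.22, with -0.39 in del-cIDR and -0.05 in FL, against 0.37 for all features. After median-centring 42 were called lower and 0 higher, where 11.4% and 2.64% of all features were. Inactive del-cIDR had the highest mean in 38 of the 44, against 6.18% of all features. The change differed between the forms in 32, against 20.1% of all features. Col-0 had the lowest mean in 27, against 65.1% of all features, and lay above FL in 17, against 5.47%. LHCB2.2, an antenna protein of photosystem II, had 1820 and 1840 in del-cIDR against 4600 and 4730 in inactive del-cIDR, but 1280 and 1310 in FL against 1300 and 1400 in inactive FL. The Rubisco activase gene RCA changed by -0.93 in del-cIDR and by -0.08 in FL. Of 9 photorespiration genes, a list added after the values were seen, 7 were called lower and 0 higher, with a median of -0.17. Of the 5 leaf mesophyll markers 3 were called lower and 0 higher, and after centring all 5 were lower; their summed signal was 23000 to 45900 in the active libraries and 23500 to 56500 in the inactive libraries. In whole seedlings, fewer cells of a type and less RNA per cell cannot be told apart, and the part of leaf cell content in the fall was not tested.

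**Figure D3:**
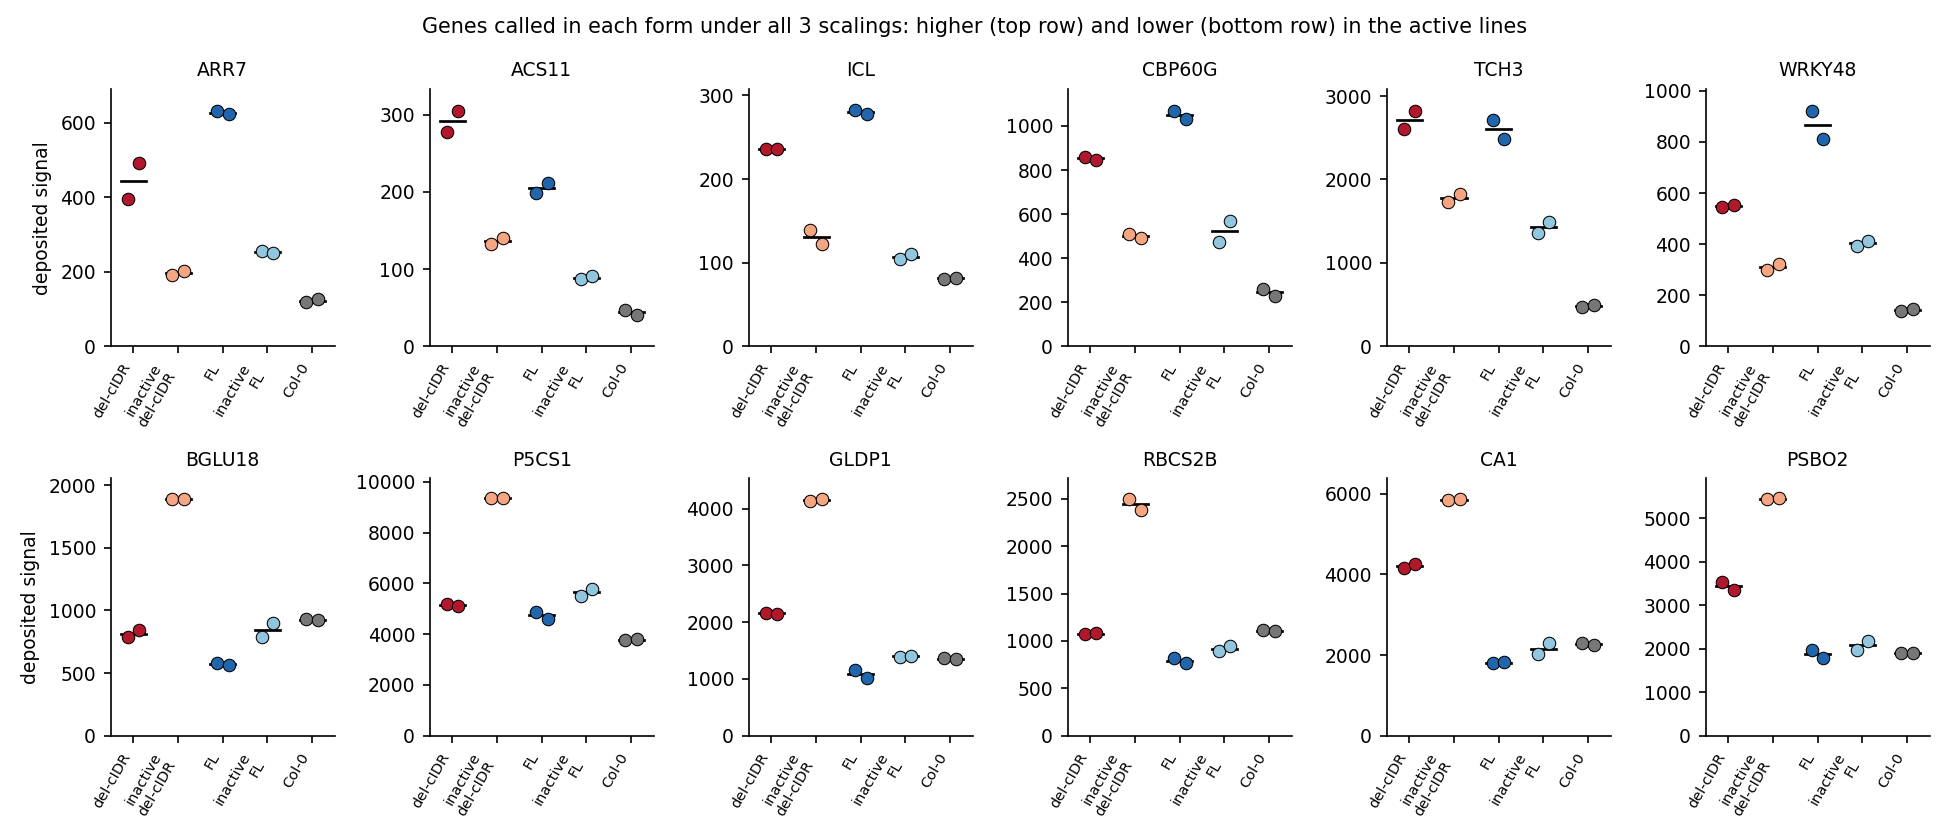
Deposited signal in each input library (points) and the mean of 2 libraries (bar) for 6 genes that were higher and 6 that were lower in each active form under all 3 scalings, axes from 0. In the upper row both active genotypes stand above their inactive counterparts and Col-0, as for ARR7 with 396 to 632 against 192 to 256; in the lower row inactive del-cIDR stands above the other 4 genotypes, as for GLDP1 with 4130 and 4160.

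Outside photosynthesis, BGLU18, a glucosidase that releases abscisic acid and acts in defence bodies of the endoplasmic reticulum, fell in both forms. It had 786 and 840 in del-cIDR against 1890 and 1890 in inactive del-cIDR, and 577 and 566 in FL against 790 and 900 in inactive FL (-0.88 ± 0.05, adjusted p = 2.76e-22, centred -1.28). P5CS1, the key enzyme of proline synthesis under stress, had 5190 and 5110 in del-cIDR against 9370 and 9380 in inactive del-cIDR, and 4870 and 4610 in FL against 5510 and 5780 in inactive FL (-0.56 ± 0.03, centred -0.95). SNG1, which makes sinapoylmalate, a leaf sunscreen, had 4520 to 4590 in the active libraries and 4810 to 5890 in the inactive ones (-0.22 ± 0.03). AT3G07350 also fell in both forms and was picked after its values were seen, with 882 and 840 in del-cIDR and 879 and 854 in FL, against 1030 and 1020 in inactive del-cIDR and 1040 and 1100 in inactive FL. Its log2 change was -0.27 ± 0.04 (adjusted p = 1.53e-06), with -0.24 in del-cIDR and -0.29 in FL.

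By the same rule the 12 of largest fall, out of 19 eligible, were AT3G28270, AT1G52000, AT5G38020, RBCS1B, P5CS1, AT2G41190, AT4G36850, MLP328, MLP34, AT4G21910, AT2G32880 and ATCG01210. The rule uses the average of the forms. In FL alone the fall did not pass for AT5G38020 (-0.14), RBCS1B (-0.18), AT4G36850 (-0.09), AT4G21910 (-0.03) and AT2G32880 (adjusted p 0.0529 to 0.754). In del-cIDR alone it did not pass for AT2G41190 (adjusted p = 0.0822). AT3G28270 had the largest change, with 54.8 and 35.5 in del-cIDR and 56.1 and 94.8 in FL, against 192 and 214 in inactive del-cIDR and 107 and 98.4 in inactive FL (-1.24 ± 0.14, adjusted p = 6.61e-11, centred -1.63). AT1G52000 averaged 485 ± 74.0 in the active lines and 875 ± 227 in the inactive lines. The major latex protein genes MLP328 and MLP34 averaged 999 ± 70.2 and 3700 ± 607 in the active lines, against 1330 ± 166 and 4820 ± 141 in the inactive lines. AT2G41190 and ATCG01210 were the members whose fall was larger in FL, with -0.82 and -0.45 there and -0.18 and -0.24 in del-cIDR. The plastid-encoded ATCG01210 had 264000 to 274000 in the active libraries and 305000 to 397000 in the inactive ones; plastid genes of the inverted repeat have a second copy, so its value is uncertain. AT2G32880 alone of the 12 had no difference between the forms past the threshold (-0.48 in del-cIDR and -0.24 in FL).

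The jasmonate and wounding list was split between the forms. Of its 21 genes 4 were called lower and 2 higher, where 0.617% and 61.1% of all features were called. After centring 13 were called lower and 0 higher, where 11.4% and 2.64% of all features were. As scaled, the list's median was -0.70 in del-cIDR and 0.34 in FL. LOX2, a lipoxygenase of jasmonate synthesis, had 667 and 724 in del-cIDR against 2100 and 1990 in inactive del-cIDR, and 607 and 594 in FL against 630 and 666 in inactive FL. VSP2, a wound-induced storage protein, changed by -1.35 in del-cIDR and by -0.28 in FL. Both were called lower, and both differed between the forms (adjusted p of the difference 4.44e-18 and 0.000199). In FL alone neither passed (adjusted p = 0.153 and 0.113).

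As lists, genes of the m6A machinery rose about as much as the median feature or somewhat more. The median change was 0.49 for the writers and 0.35 for the readers, against 0.37 for all features. Of the m6A writers, 3 of 6 could be matched to the gene table and all 3 were called higher. As scaled, 61.1% of all features were called higher. MTA, the catalytic subunit, had 448 and 452 in del-cIDR and 436 and 434 in FL, against 292 and 314 in inactive del-cIDR and 308 and 330 in inactive FL (0.50 ± 0.06, adjusted p = 5.14e-09), which was 0.11 after median-centring and then not called. FIO1, which methylates U6 RNA, changed by 0.49 and 0.10 on the same 2 scales. FIP37, a scaffold of the writer complex, changed by 0.30 as scaled, a sign that turned to -0.09 after centring. Of 12 readers 9 were called higher and 0 lower, beside the 61.1% of all features. After median-centring 0 were higher and 2 lower, where 2.64% and 11.4% of all features were. ECT2, the main reader, had 6170 and 6430 in del-cIDR and 6980 and 6980 in FL, against 4000 and 3980 in inactive del-cIDR and 5340 and 5560 in inactive FL. Col-0, at 6990 and 6970, lay beside FL and above the inactive lines. ECT2 changed by 0.66 in del-cIDR and 0.36 in FL (adjusted p of the difference 6.93e-05). After centring within level classes ECT2 and ECT3 were called higher, by 0.25 and 0.22, and no other reader was. For ECT3 too, Col-0, at 916 and 908, lay above the inactive lines. The 5 listed AlkB genes of plants could not be matched and are not analysed here.

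All 16 histone methylation genes and 20 of 23 DNA methylation and silencing genes were called higher. So were 13 of 14 genes of post-transcriptional silencing and 21 of 24 flowering time genes. These shares lie above the 61.1% of all features, but the medians were 0.32, 0.26, 0.33 and 0.38 against 0.37 for all features. Neither shares nor medians were matched for level. The median feature changed by 0.50 in the lowest class of the Col-0 level and by 0.27 in the highest. After median-centring none of these 4 lists had a gene called higher, and 1, 4, 0 and 2 were called lower. The shares of all features on that scale, for these lists and those that follow, were 2.64% higher and 11.4% lower. Of 21 heat and protein folding genes 11 were called higher, of 15 light signalling genes 6, of 13 flavonoid genes 3 and of 16 dividing-cell genes 6, with 0 called lower in each; all 4 shares lie below the 61.1% of all features. After centring the counts were 1 higher and 7 lower for heat, 0 and 6 for light, 1 and 2 for flavonoids and 0 and 2 for dividing cells. Of 16 iron, phosphate and nitrate genes 6 were called higher, again a smaller share than the 61.1%, and after centring 2 were higher and 4 lower. The 2 were MGDC, a galactolipid synthase, and SPX3, a phosphate sensor protein, both induced by lack of phosphate. MGDC averaged 84.8 ± 37.6 in the active lines and 29.9 ± 3.11 in the inactive lines, and SPX3 averaged 59.3 ± 38.2 and 19.6 ± 7.26. MGDC changed by 1.74 in FL and 0.70 in del-cIDR, and SPX3 by 2.07 in FL and 0.26 in del-cIDR, where it did not pass the test (adjusted p = 0.544).

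Markers of other tissues were called higher about as often as other features. Where 61.1% of all features were called higher, 7 of 8 were called higher for root endodermis, 4 of 9 for root hair and root uptake, 5 of 8 for xylem, 3 of 7 for phloem, 4 of 7 for guard cells, 3 of 8 for shoot epidermis and 7 of 12 for seed storage, and 1 epidermal marker was called lower. After median-centring 1 seed storage gene and no other of these markers was called higher, and 3 phloem, 1 guard cell and 5 epidermal markers were called lower. On that scale 2.64% of all features were called higher and 11.4% lower. The summed root endodermis signal was 657 to 812 in the active libraries and 494 to 540 in the inactive libraries, and the summed seed storage signal 845 to 1290 and 669 to 889.

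**Figure D4:**
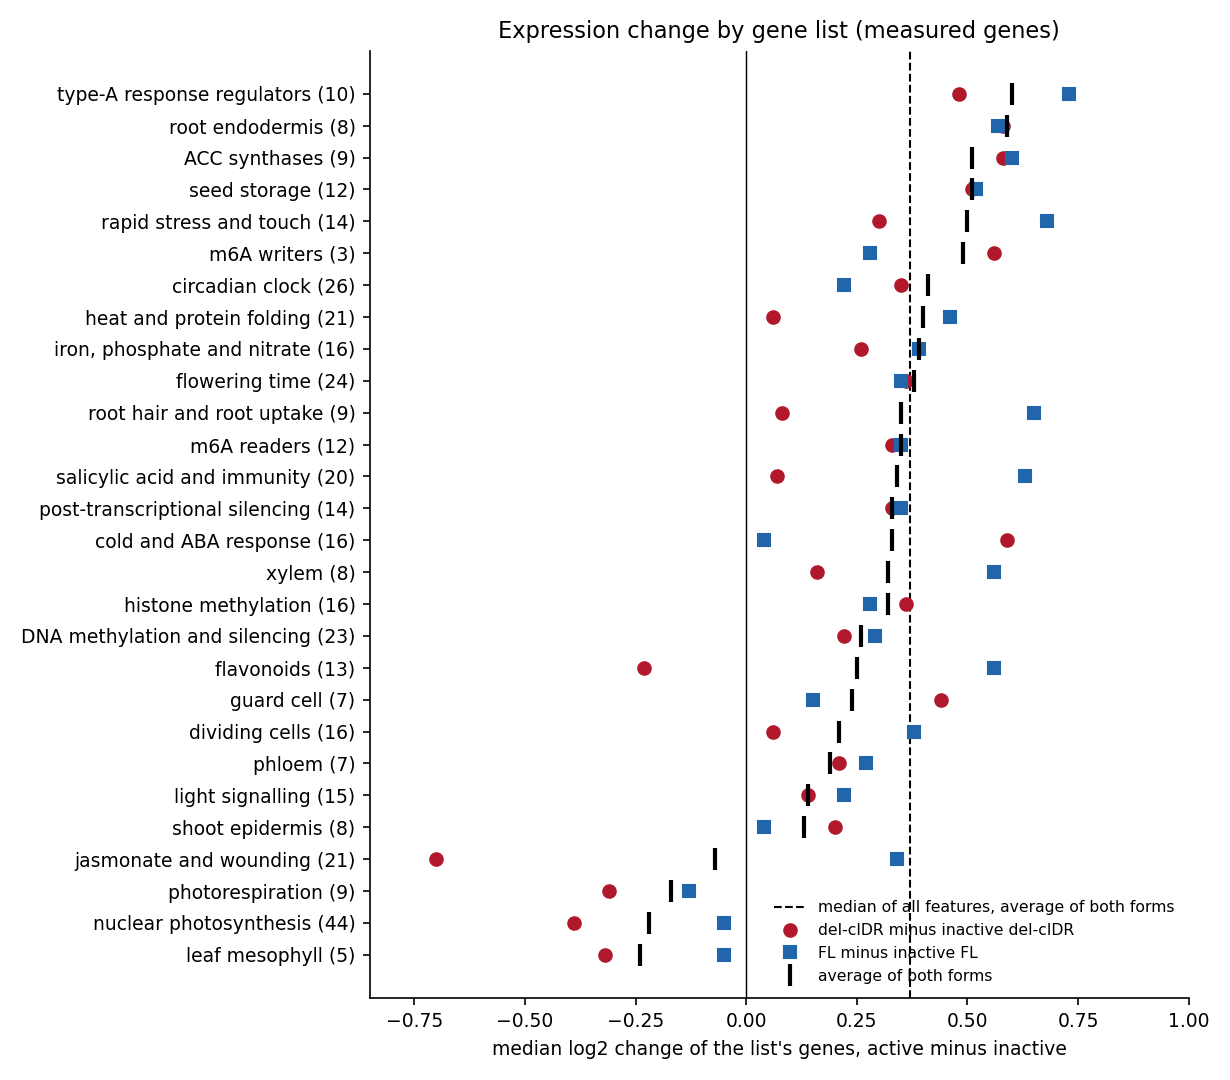
Median log2 change of the measured genes of each list (number in brackets), active minus inactive, for del-cIDR (circles), FL (squares) and the average (bars), with the median of all features, 0.37, dashed. Photosynthesis, photorespiration and leaf mesophyll lie below 0 in both forms, jasmonate genes lie at -0.70 in del-cIDR and 0.34 in FL, and type-A response regulators have the highest average, 0.60.

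On the side of m6A, few changes shared by the active lines passed the test. The medians of the deposited ratio were 2.63 and 1.67 in del-cIDR and 2.23 and 4.62 in FL, against 2.51 and 4.57 in inactive del-cIDR and 2.97 and 3.63 in inactive FL. The groups overlapped: FL replicate 2 had the highest median of the 8 libraries, and del-cIDR replicate 1 lay above inactive del-cIDR replicate 1. Col-0 lay above all of them, at 6.60 and 7.09. The difference of the mean log2 medians was -0.36 (exact permutation test, two-sided p = 0.371), with -0.69 in del-cIDR and -0.03 in FL. It was -0.15 without del-cIDR replicate 2, -0.21 without inactive del-cIDR replicate 2 and -0.64 without FL replicate 2. Of 2291 peaks, 1074 were lower in both active lines and 130 were higher in both, and the remaining peaks changed sign between the forms. The median change per peak was -0.27, with -0.51 in del-cIDR and -0.01 in FL. The median was 0.11 in the lowest of 10 classes of the Col-0 level and -0.37 in the highest.

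Only 1 peak was called lower and 1 higher, each 0.0436% of the peaks tested (limma, adjusted p under 0.05 and the same sign in both forms). These calls rest on the average of the forms. No peak passed in both forms' own contrasts, in either direction. At an unadjusted p under 0.05 there were 152 of the 2291 peaks, of which 129 were lower and 12 higher in both forms. That threshold makes no allowance for the number of peaks tested, so many would pass it by chance alone. With either centring, or with limma's variance trend switched off, the count was 0 in both directions. The active and inactive libraries did not overlap in 16 peaks that were lower, 0.698%, and in 3 that were higher, 0.131%.

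The peak called lower lies on chromosome 1 at 8814591 to 8816593 (TAIR10, as the files give it), and at 2003 bases it spans parts of 3 genes, AT1G25097 and AT1G25112, which are protein-coding, and the long non-coding RNA gene AT1G25098, each holding under 50% of it. Its ratio was 0 and 0.386 in del-cIDR and 0.875 and 0.872 in FL, against 0.917 and 4.76 in inactive del-cIDR and 3.29 and 4.23 in inactive FL. Col-0 had 2.82 and 3.78. All active libraries were below all inactive ones, the nearest pair being FL replicate 1 and inactive del-cIDR replicate 1. The log2 change was -1.78 ± 0.30 (adjusted p = 6.23e-06), with -1.97 in del-cIDR and -1.60 in FL, and -1.49 after median-centring, where it was not called. In limma's contrast within each form it passed in del-cIDR (adjusted p = 0.00756) but not in FL (adjusted p = 0.0549). The input signal of AT1G25098 was 41.5 and 59.1 in del-cIDR and 51.8 and 99.0 in FL, against 29.4 and 23.4 in inactive del-cIDR and 41.6 and 44.3 in inactive FL (0.72 ± 0.18, adjusted p = 0.000988).

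The peak called higher lies on chromosome 5 at 11326246 to 11326580 within the pseudogene AT5G29975. It had 0.385 and 1.02 in del-cIDR and 0.679 and 0.618 in FL, against 0 and 0.164 in inactive del-cIDR and 0.383 and 0.188 in inactive FL. The log2 change was 0.75 ± 0.18 (adjusted p = 0.0403). It was 0.96 in del-cIDR and 0.53 in FL. In limma's contrast within each form it passed in neither (adjusted p = 0.068 and 0.999). Col-0, at 7.94 and 2.36, lay above all 8 libraries, so this peak was weak in all ALKBH5 lines and weaker where the enzyme was inactive. Its call was lost without any one of 5 other libraries: del-cIDR replicate 2, inactive del-cIDR replicate 1 or 2, inactive FL replicate 2 or Col-0 replicate 2. The change was 0.56 to 0.94 over the 10 fits that leave out 1 library.

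The next peaks by p did not pass. The peak on AT2G47020 had 1.64 and 0.739 in del-cIDR and 0 and 2.36 in FL, against 1.38 and 3.01 in inactive del-cIDR and 5.48 and 3.03 in inactive FL (-1.27 ± 0.36, adjusted p = 0.19), and a peak on AT3G24929 changed by -0.76 (adjusted p = 0.374). Peaks at 8959229 to 8959622 on chromosome 5 and 2994467 to 2994731 on chromosome 4 changed by -1.22 and -0.57. In the other direction were peaks on AT4G20700 (0.86, adjusted p = 0.0936) and AT1G40104 (1.18, adjusted p = 0.19), and peaks outside annotated genes at 3954411 to 3954848 on chromosome 4 (1.08) and 13589040 to 13589596 on chromosome 3 (0.77). Among the listed genes no peak was called. Of the 7 peaks on histone methylation genes the median change was -0.56, of the 7 on flowering time genes -0.32 and of the 17 on photosynthesis genes 0.11, against -0.27 for all peaks. The peak on the clock gene LCL1, chosen after its values were seen because the groups did not overlap, had 4.1 and 4.21 in del-cIDR and 5.29 and 6.57 in FL, against 1.62 and 3.76 in inactive del-cIDR and 2.78 and 3.32 in inactive FL (0.74 ± 0.41, adjusted p = 0.794).

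Leaving out FL replicate 2 changed the number of lower peaks more than leaving out any other library. Without it 85 peaks were called lower, 3.71%, and 5 higher, 0.218%, while leaving out each of the 9 others gave 1 or 2 lower and 0 to 3 higher. The fit without FL replicate 2 left FL with 1 library. The peaks called lower in that fit were all on nuclear chromosomes, as were 2247 of all 2291 peaks. Their median change was -1.28 without FL replicate 2 and -0.90 with it. With all libraries it was -1.29 in del-cIDR and -0.43 in FL. Of the 7 peaks on the histone methylation list 1 was among them, that of the histone demethylase ELF6. The ELF6 peak had 1.19 and 0.225 in del-cIDR and 0.632 and 2.27 in FL, against 1.80 and 2.29 in inactive del-cIDR and 1.19 and 2.50 in inactive FL. Its change was -0.75 with all libraries (adjusted p = 0.648) and -1.06 without FL replicate 2 (adjusted p = 0.0354). A peak on ARP4, an actin-related protein of chromatin complexes picked after its values were seen, had 5.82 and 0.92 in del-cIDR and 1.67 and 11.6 in FL, against 5.08 and 8.56 in inactive del-cIDR and 6.07 and 15.5 in inactive FL. For both peaks FL replicate 2 lay within the range of the inactive libraries and FL replicate 1 below all of them. The ratio median of FL replicate 2, 4.62, was above that of FL replicate 1, 2.23, and its part in these calls was not tested.

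**Figure D5:**
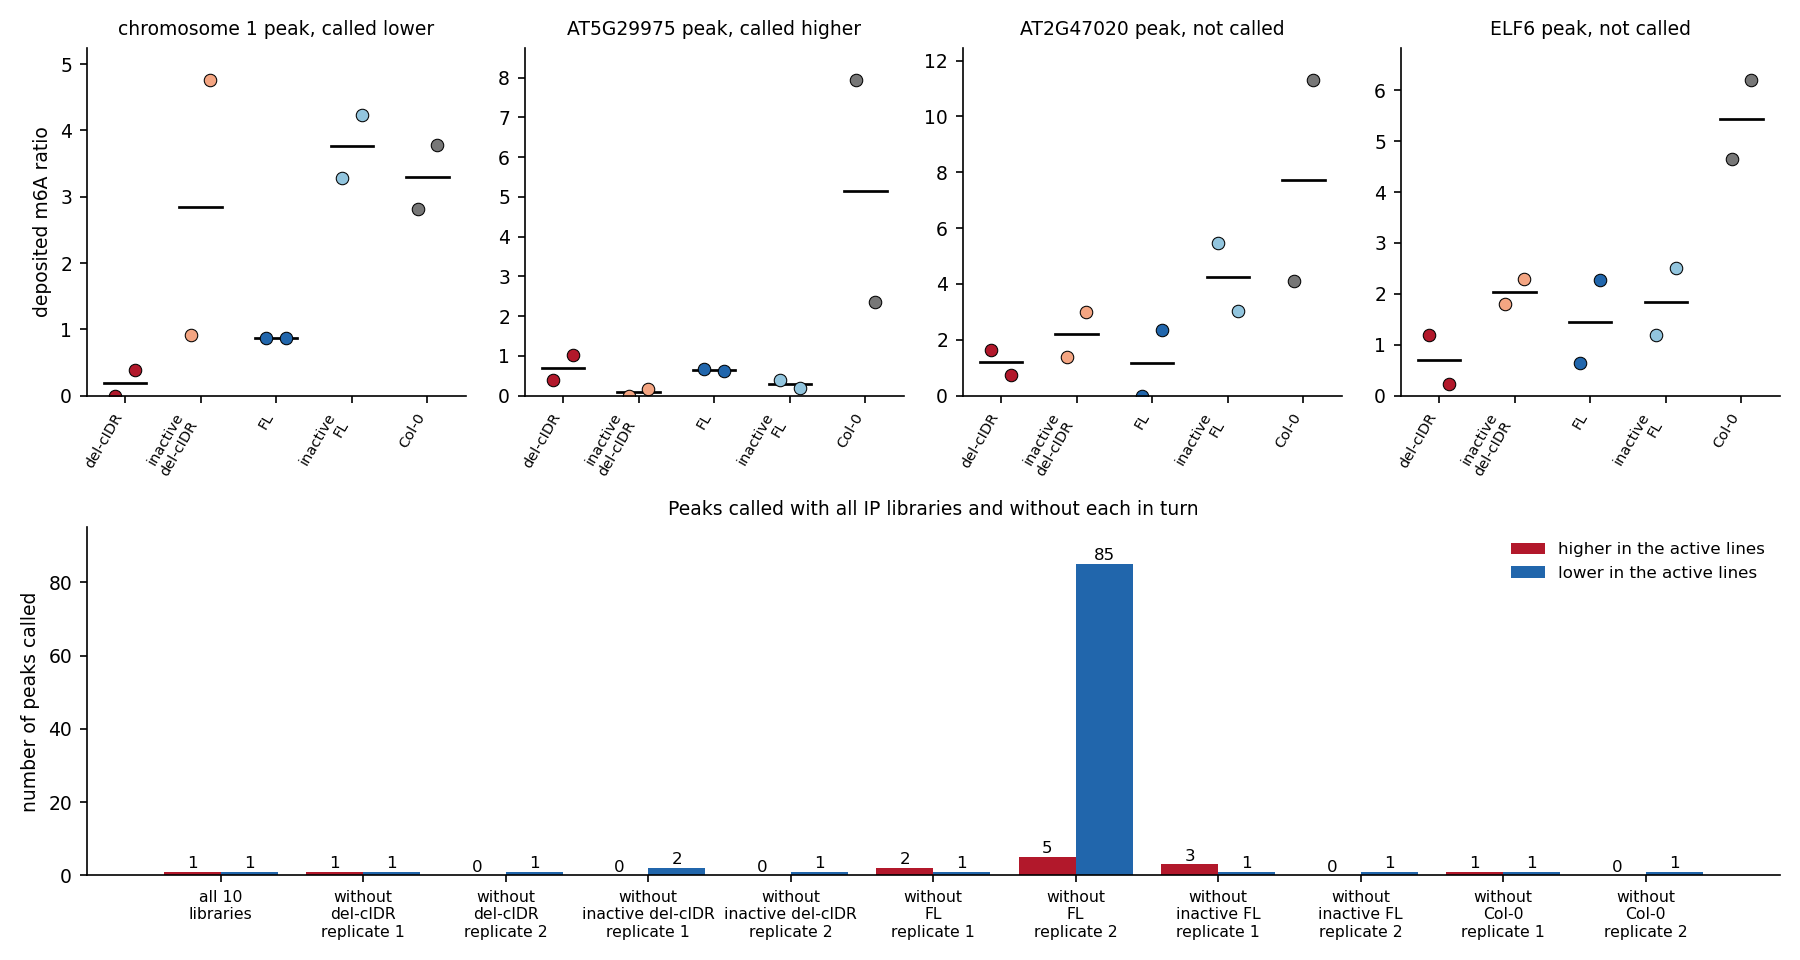
Top: deposited m6A ratio in each IP library (points) and the mean of 2 libraries (bar) for the peaks called lower and higher and for 2 peaks that were not called. Bottom: number of peaks called higher and lower with all 10 IP libraries and without each in turn; 85 are called lower without FL replicate 2, and 1 or 2 in every other case.

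The changes of peaks were set beside the changes of the RNA of their genes. For 2021 peaks whose gene was measured in the input libraries (1974 genes), the Pearson correlation of the 2 changes was -0.051, across peaks that share the 8 lines and are not independent replicates. The denominator of the m6A ratio is not given, so whether the input signal enters both changes is unknown. Of these 2021 peaks 81.1% lay on genes called higher in expression, against 61.1% of all features. The median expression change of genes with a peak was 0.28, against 0.37 for all features and 0.33 for protein-coding genes. Neither comparison was matched for level. The median feature changed by 0.50 in the lowest class of the Col-0 level and by 0.27 in the highest. Whether genes with a peak rose more or less than others of their level was not tested. Among 994 peaks lower in both active lines the genes were called higher in 86.5% of cases, with a median expression change of 0.29, and among 73 peaks higher in both active lines in 69.9%, with a median of 0.30; the difference between these shares was not tested. Of the peaks lower without FL replicate 2, 73 had a measured gene, of which 58 were called higher and 0 lower in expression, with a median change of 0.27.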

How the data were processed

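Per the labels' protocols, 200 ng of chromatin-associated, non-ribosomal RNA was used, 5% was kept as input, and the rest went through m6A immunoprecipitation. The authors' deposited expression table gives a signal per feature, for which the normalization is not given in the sources used here. The authors' deposited m6A table gives a ratio per peak, with the m6A spike-in at the same value in every library, and its denominator is not given. Tools listed in the submitters' processing notes were MACS2, featureCounts, bedtools, HISAT2, fastp, Picard and SAMtools, with build TAIR10. Spike-in rows were left out, and log2 values, with the 5th percentile of the non-zero deposited values added (0.542 for m6A, 6.94 for expression), were fitted in limma 3.58.1 (R 4.3.3) with a variance trend and 5 genotype means over 10 libraries per table. The contrast was the mean of del-cIDR minus inactive del-cIDR and FL minus inactive FL. A feature was called where p, adjusted over the whole table by Benjamini and Hochberg's method, was under 0.05 and the sign was the same in both forms. The code was tested on simulated data. Tables and exact tests were made with Python 3.11.15, numpy 2.4.6, pandas 2.3.3 and scipy 1.17.1, and figures with matplotlib 3.10.9.

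Named features were the 12 of largest change per direction among called features without overlap and whose mean reached the median feature's, the 5 of smallest p where fewer than 5 passed, m6A writers and readers, and members of small p of each list. Of 432 list entries, 419 were matched to 1 gene by symbol in RefSeq's TAIR10.1 table, which was used for names only. A peak was assigned to a gene that alone covered at least 50% of it. Members and lists were chosen with earlier results of these data known, and the type-A response regulator, ACC synthase and photorespiration lists and the set called under all 3 scalings were added after the values were seen. Pseudocounts, filters, scalings, fits and left-out libraries were varied.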

Additional observations from a re-analysis of the deposited data

Results flagged for a closer look

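For 39 named features the change in del-cIDR and the change in FL differed in limma's test of that difference. The values below are the del-cIDR change minus the FL change on the log2 scale. Among genes that were higher in the active lines, the rise was larger in del-cIDR for CBF1 0.41, AT5G24240 1.95, AT3G57420 2.22, AT4G25580 1.84, FKF1 2.26, DREB2C 1.73, GRP7 1.92, PCL1 1.41, ECT2 0.30 and ELF6 0.41. It was larger in FL for RR5 -0.84, MYB51 -0.55, TCH3 -0.26, MGDC -1.04, SPX3 -1.81 and AT5G29975 -1.19. Among genes that were lower, the fall was larger in del-cIDR for AT3G28270 -1.59, AT1G52000 -1.0, AT5G38020 -1.12, BGLU18 -0.65, RBCS2B -0.97, RBCS1B -0.94, P5CS1 -0.61, AT4G36850 -0.63, MLP328 -0.42, MLP34 -0.47, AT4G21910 -0.69, GLDP1 -0.58, SHM1 -0.53, CA1 -0.23, PSBO2 -0.52, PSAO -0.34, LHCB2.2 -1.29, RCA -0.85, LOX2 -1.44, VSP2 -1.07 and SNG1 -0.24. It was larger in FL for AT2G41190 0.64 and ATCG01210 0.20.

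In 5 cases 1 of 4 libraries stood apart from the other 3 of its group by more than Dixon's critical value; chance gives this in about 1 of 20 groups. The median expression level of inactive FL replicate 1, 60.8, was low (ratio of gap to range 0.863). ARR6 had 128 in inactive FL replicate 2, FIO1 had 177 in del-cIDR replicate 2 and the ELF6 transcript had 1629 in FL replicate 1. The m6A peak at 2994467 to 2994731 on chromosome 4 had 1.14 in inactive del-cIDR replicate 2.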

How the results depend on the processing

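The difference in median expression level, 0.43, had an exact p of 0.0556 with activity permuted within each form, and was 0.37 to 0.50 without 1 library (exact p 0.0571, the smallest that 3 against 4 allow). The difference in median m6A level was -0.64 to -0.15 without 1 library and did not pass in any case. Counts of m6A peaks called higher and lower were 0 and 0 for features at or above the median level, without the variance trend, after median-centring and after centring within 10 level classes, and 0 and 1 with form as an additive term. Without 1 library they were 0 to 5 higher and 1 to 85 lower, with 85 only without FL replicate 2. Expression features called higher and lower were 10652 and 176 among features at or above the median level (fewer were tested), 809 and 3488 after median-centring, 748 and 1092 after centring within level classes, and 14044 and 118 with form as an additive term. Without 1 library they were 14217 to 19755 and 138 to 252. FIP37 changed sign after median-centring, to -0.09. Of 76 named features, 68 kept direction and side of the threshold after median-centring, 66 after centring within level classes and 67 without FL replicate 2. Apart from the scaling, which by construction removes the shift of the library medians, the cause of these changes was not tested.

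Correlations of the deviations of same-numbered libraries were -0.23 to -0.15 in m6A for the 3 pairs with del-cIDR, 0.21 to 0.35 for the other 3, and 0.06 to 0.10 in expression. Since not every pair was above 0.1, the numbers were not taken to pair the libraries. With the replicate block, 1 and 1 peaks and 19194 and 191 expression features were called, and no call of a named feature changed. Motif counts in promoters were not run, since no promoter sequences were used here. Without counts, precision at low values cannot be stated.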
